A study of Mus musculus with 2 samples.

Results

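The cells described here were C1q-low myeloid cells recovered in tumour libraries that had been sorted for regulatory T cells (Tregs). A barcode was a member when it held at least 10 unique molecular identifiers (UMIs, 1 per captured transcript) of Lyz2, the lysozyme gene of monocytes, macrophages and neutrophils, and at most 3 UMIs each of the complement genes C1qa, C1qb and C1qc summed, of the mature dendritic cell genes Fscn1 and Ccl22 summed, and of the T cell genes Cd3d, Cd3e and Cd3g summed. Barcodes also had to show 500 or more genes and a mitochondrial share of UMIs below 10%. Of 7868 such barcodes, 181 (2.30%) were members. The wild-type (WT) library gave 38 members of 3842 barcodes, or 0.989% (0.701 to 1.36), and the library of mice with a Treg-directed deletion of Jmjd1c (cKO) gave 143 of 4026, or 3.55% (3.002 to 4.17).

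Each genotype, labelled JMJD1CWT and JMJD1CTregcKO, was represented by 1 library from tumour tissue of C57BL/6 mice aged 8 to 12 weeks, so no difference between them has a replicate check. The cells had been enriched as lymphocytes, selected as Tregs on magnetic beads, sorted by fluorescence and captured with a droplet 3' kit, so the members are cells that passed through a sort meant for another type and their share measures the sort as well as the tumour. Jmjd1c encodes a histone demethylase of the KDM3 family. The tumour model, the driver of the deletion, the exons removed, and the number and sex of the animals were not given in the sources used here. Intervals in parentheses are 95% limits (exact Clopper-Pearson for shares, exact Poisson for levels, exact conditional binomial for ratios) and cover counting error only. Levels are CPM, a gene's scaled share of all UMIs after summing over the members of a library, and log2 ratios are cKO over WT after adding 5 CPM to both.

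Monocytes are made in the bone marrow and enter inflamed tissues and tumours from the blood, where they can become macrophages or antigen-presenting cells. The classical kind in mice carries Ly6C, encoded in part by Ly6c2, together with the chemokine receptor CCR2, while the nonclassical kind patrols vessel walls and expresses Ace and Treml4. Monocytes that have left the blood lose Ly6C, and many gain major histocompatibility complex (MHC) class II molecules or complement C1q as they mature. Interleukin 1 beta (Il1b) is a cytokine of inflammation, thrombospondin 1 (Thbs1) is a secreted matrix glycoprotein that binds CD47 and activates latent TGF-beta, and interferon-gamma, a product of T and NK cells, induces guanylate-binding proteins, immunity-related GTPases and antigen presentation in myeloid cells.

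Among the genes that differed most between the 2 libraries were known targets of interferon-gamma. The promoters of 4 of them are shown, picked because they hold a motif searched here. They are not a sample of the list: Cxcl9, with a larger ratio than these 4, held neither motif. What caused the differences was not tested. Each run is the 250 bases before a RefSeq transcript start (build GRCm38.p6), 5′ to 3′ on the gene's strand. Where a gene had several starts, the one with the most matches was taken. Capitals mark a gamma-activated site, searched as TTCNNNGAA, or an interferon-stimulated response element, searched as GAAA, any 2 bases and GAAA again, on either strand. Gbp2, a guanylate-binding protein, lies at chr3:142620413-142620662 on the plus strand, with a response element that starts 59 bases before the transcript. Irf1, a transcription factor, lies at chr11:53769764-53770013 on the plus strand, with a gamma-activated site at 90 bases. Igtp, an immunity-related GTPase, lies at chr11:58199306-58199555 on the plus strand and holds a gamma-activated site at 45 bases and a response element at 34 bases. Socs1, a feedback inhibitor of cytokine receptors, lies at chr16:10785537-10785786 on the minus strand with overlapping response elements at 83 and 77 bases.
Gbp2: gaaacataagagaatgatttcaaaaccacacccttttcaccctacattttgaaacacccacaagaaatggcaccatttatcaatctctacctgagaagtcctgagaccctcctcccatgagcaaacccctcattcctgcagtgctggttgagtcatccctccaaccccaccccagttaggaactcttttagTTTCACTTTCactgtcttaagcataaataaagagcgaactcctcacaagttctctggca
Irf1: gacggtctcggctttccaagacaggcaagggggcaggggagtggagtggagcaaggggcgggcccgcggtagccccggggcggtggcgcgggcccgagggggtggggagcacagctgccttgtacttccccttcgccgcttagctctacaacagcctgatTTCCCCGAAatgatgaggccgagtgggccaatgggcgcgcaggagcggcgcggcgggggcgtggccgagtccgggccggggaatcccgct
Igtp: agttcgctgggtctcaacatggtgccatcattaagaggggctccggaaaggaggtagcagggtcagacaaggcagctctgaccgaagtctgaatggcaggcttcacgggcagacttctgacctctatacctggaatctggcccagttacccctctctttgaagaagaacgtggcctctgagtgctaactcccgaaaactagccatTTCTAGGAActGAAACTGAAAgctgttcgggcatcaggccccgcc
Socs1: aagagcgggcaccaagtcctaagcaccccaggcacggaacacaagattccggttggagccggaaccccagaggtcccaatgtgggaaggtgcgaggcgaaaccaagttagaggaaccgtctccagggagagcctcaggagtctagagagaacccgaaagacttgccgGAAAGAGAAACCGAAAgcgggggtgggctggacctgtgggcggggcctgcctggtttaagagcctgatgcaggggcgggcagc
Of 17 genes in the interferon-gamma list, 15 were matched to a promoter; 7 of these (46.7%) held a gamma-activated site, 10 (66.7%) a response element and 11 (73.3%) either. Over all 27025 genes with a promoter of the same length the shares were 8.13%, 3.46% and 11.1%. The response element was also frequent in the type I interferon list, whose genes this motif is named for: of 15 matched promoters, 7 (46.7%) held it and 8 (53.3%) held either motif. Of 17 class I promoters 4 (23.5%) held either, of 10 class II promoters 2, and of 16 inflammatory-mediator promoters none. A gene counted as holding a motif if any of its starts did, in the lists and over all genes alike. A match is a description of the letters and not evidence of binding.

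The members were deep enough for gene-level description, but unevenly so between libraries. They summed to 551332 UMIs in WT and 1554777 in cKO, with medians of 14107.5 (range 5098 to 28912) and 10710 (1180 to 24213) UMIs and of 3158.5 and 2634 genes per cell, and median mitochondrial shares of 2.43% and 2.23%. A count of 0 allows up to 5.44 CPM in WT and 1.93 CPM in cKO (3 counts per library). Of the barcodes with 10 or more Lyz2 UMIs, 99 in WT and 315 in cKO, the Cd3 ceiling removed 47 and 77, the C1q ceiling alone 14 and 95, and the Fscn1 and Ccl22 ceiling alone none in either library. Xist, the transcript that silences 1 X chromosome in females, was found in 37 of 38 WT members and 0 of 143 cKO members, and Y-linked genes in 0 and 103, so the libraries differ in sex as well as genotype. Genotype, sex and library cannot be told apart in any comparison here, nor can less RNA per cell be told from fewer cells in a summed level.

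The C1q ceiling divided the cells cleanly in WT, where no barcode otherwise like a member had 4 to 9 C1q UMIs, and nearly so in cKO, with 9 such barcodes. Of the members, 33 of 38 and 119 of 143 had no C1q UMI at all. The 24 cKO members with 1 to 3 C1q UMIs held 9902 CPM of Il1b, and the 9 cKO barcodes just outside with 4 to 9 held 954 CPM. At the Lyz2 edge, the 3 WT and 11 cKO members with 10 to 19 UMIs held 6793 and 4554 CPM of Il1b, and the 5 and 9 barcodes just outside with 5 to 9 held 476 and 4160 CPM.

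The label was checked against marker lists of monocytes and of other cell types. Besides Lyz2 at 8445 CPM in WT and 14141 in cKO, which the rule required, the members expressed Il1b at 6522 and 7438 CPM, Thbs1 at 3546 and 3676 CPM and Tgfbi, an adhesion protein of monocytes, at 1848 and 1273 CPM. All 10 classical monocyte markers were measured at a mean of 20 CPM or more, with a summed level of 8668 CPM in WT and 7933 in cKO against 2103 and 2360 in C1q-high cells (Lyz2 at 10 UMIs or more, C1q at 10 or more, the other ceilings alike; 14 WT and 86 cKO cells). Of 7 nonclassical markers, 6 were measured, at sums of 374 and 353 CPM. The same list summed to 244 and 210 CPM in C1q-high cells and to 456 and 503 CPM in T cells. The nonclassical sum thus did not set the members apart from T cells. The macrophage list, C1q included, summed to 3600.4 and 2960 CPM in the members against 29024 and 17694 CPM in C1q-high cells. The C1q limits that define both classes set part of this contrast in advance. The neutrophil genes Ly6g, Camp, Ngp and Retnlg stood at 0 in both libraries. The whole list of 11 neutrophil genes was not low, at sums of 299 and 423 CPM. It summed to 148 and 184 CPM in C1q-high cells and to 202 and 160 CPM in T cells. The mast cell and basophil genes Cpa3, Mcpt8, Ms4a2, Fcer1a, Gata2 and Tpsb2 stood at 0 in both libraries. With these 6 of its 7 genes at 0, that list summed to 19.95 and 63.03 CPM. Fscn1 of mature dendritic cells also stood at 0, in a list of 8 genes that summed to 122 and 75.3 CPM. The 12 T cell markers summed to 99.8 and 142 CPM, against 8147 and 10270.3 CPM in T cells. Cd3 was capped in the members and required in T cells, so part of that contrast was set in advance. The 8 Treg markers, none used by the rule, summed to 149 and 160 CPM against 8164 and 9793 CPM. Other marker lists were not low. The 8 markers of type 1 conventional dendritic cells summed to 551 and 579 CPM, against 152 and 184 CPM in T cells and 513 and 636 CPM in C1q-high cells; most of it was Irf8 (354 and 379 CPM) and Naaa (139.7 and 155 CPM), while Xcr1 and Clec9a stood at or under 9.07 CPM. The 5 CD8 T cell markers summed to 323 and 389 CPM, of which the chemokine Ccl5 made 312 and 375 CPM, with single cells at up to 8605 and 11805 CPM; Cd8a stood at 1.81 and 1.29 CPM. Markers of NK cells, B cells, fibroblasts, endothelium, epithelium and red cells summed to at most 23.6 CPM each in either library. The classical monocyte list, not used by the rule, thus went with the label of monocytes and inflammatory myeloid cells. Il1b, Thbs1 and Tgfbi were markers by which the part was named from these data, so their levels are no separate check. Most thinned C1q-high cells held them too. Il1b was in 84.6% of these in WT and 88.0% in cKO, Thbs1 in 84.6% and 90.4%, and Tgfbi in 100% in both. A few single members stood apart.

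Those single cells were counted. A WT member held 234 of the 235 UMIs of the plasmacytoid dendritic cell genes Siglech, Ccr9, Ly6d, Klk1 and Cox6a2 in WT members, and no cKO member held 3 or more. It was also the single member among the highest 5% of Scrublet doublet scores in its library, and no cKO member was among them; whether it was a doublet was not tested. It also held 19.8% of the Ly6c2 UMIs and 42.6% of the Irf8 UMIs of the WT members. S100a8 and S100a9, alarmins of neutrophils and early monocytes, reached 10 UMIs in 1 WT and 2 cKO members, and these few cells made the sums: 92.1% of WT S100a8 UMIs and 71.5% of cKO S100a9 UMIs lay in 1 cell. Conventional dendritic cell genes (Flt3, Xcr1, Clec9a, Cd209a) reached 3 UMIs in 1 WT and 3 cKO members.

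Il1b, at chr2:129364570-129371139, had a summed level of 6522 CPM (6311 to 6739) over WT members against 7438 CPM (7303 to 7575) over cKO members, a ratio of 1.14 (1.10 to 1.18) and a log2 ratio of 0.19. The level per cell ran from 0 over a median of 5034 to 25212 CPM in WT and from 0 over 5311 to 29758 CPM in cKO. The 2 distributions covered the same range, and the size of the ratio went from 0.09 to 0.42 on the log2 scale under other member rules and scalings. Il1b was found in 35 of 38 and 141 of 143 members. In T cells of the same libraries, which should lack it, it stood at 95.5 and 271 CPM. After thinning every cell to 5200 UMIs, 86.5% of WT members (71.2 to 95.5) and 97.7% of cKO members (93.3 to 99.5) held an Il1b UMI (unthinned 92.1% and 98.6%), against 3.76% of WT T cells (3.12 to 4.47) and 8.73% of cKO T cells (7.64 to 9.91).

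Thbs1, at chr2:118111876-118127133, was closer than Lyz2, Il1b or Tgfbi between libraries, at 3546 CPM (3390 to 3707) for WT against 3676 CPM (3581 to 3772) for cKO, with a ratio of 1.04 whose interval spanned 1 (0.984 to 1.09). Its median per cell was 2240 CPM in WT (0 to 16085) and 3116 CPM in cKO (0 to 16848). T cells held 1.72 and 7.45 CPM, and C1q-high cells 1806 and 2605 CPM. Each of Il1b and Thbs1 was common in the thinned members. Il1b reached 10 or more UMIs in 67.6% of WT and 77.3% of cKO members, and Thbs1 in 54.1% and 72.7%. Both reached 10 or more in 15 of 37 in WT (40.5%) and 73 of 128 in cKO (57.0%), while 7 (18.9%) and 9 (7.03%) held under 10 of each. Whether the 2 genes shared cells more often than their single shares would give was not tested.

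Ly6c2, at chr15:75108158-75111970, encodes the Ly6C antigen of classical monocytes. WT members held 1255 CPM (1163 to 1352) and cKO members 1886 CPM (1818 to 1955), a log2 ratio of 0.59, or 0.83 without the WT cell with plasmacytoid genes. The median per cell was 495 CPM in WT (0 to 9480) and 1381 CPM in cKO (0 to 8386). Cells without a Ly6c2 UMI occurred in both libraries, 7 of 38 and 18 of 143, so the distributions overlapped over most of their range. C1q-high cells held 307 and 651 CPM, and T cells 27.6 and 204.5 CPM, a difference between the libraries' T cells in the same direction. Ly6c1, a close relative that short 3' tags can confuse with Ly6c2, was at 0 in WT and 1.93 CPM in cKO members.

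Thinned cells were set in 3 ranges by their Ly6c2 count, without calling the ranges types. In WT, 17 of 37 cells (45.9%) had 0 to 1 UMI and 7 (18.9%) had 10 or more; in cKO, 31 of 128 (24.2%) and 51 (39.8%). Cells near the upper edge, at 8 to 11 UMIs, numbered 3 and 16. In the cKO library MHC class II followed the reverse order of Ly6c2: H2-Aa, the class II alpha chain, stood at 6862, 3475 and 1107 CPM from the lowest to the highest range, and Cd74, the invariant chain, at 16168, 9762 and 4655 CPM. Plac8, a gene of circulating monocytes, stood at 1631, 3436 and 5173 CPM, and Hp, haptoglobin, at 124, 336 and 513 CPM. The WT library did not show this order for class II: H2-Aa stood at 2034, 2415 and 3026 CPM and Cd74 at 5643, 6408 and 7383 CPM, with 7 cells in the highest range. Il1b in WT stood at 8656, 6173 and 2835 CPM and in cKO at 8320, 7248 and 7349 CPM. The WT cell with plasmacytoid genes, which is rich in Ly6c2, was not left out and weighs on the highest WT range. The WT values were not computed without it, so the difference in order between the libraries may rest on few cells. No test was made between ranges, whose cells come from 1 library each.

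**Figure D1:**
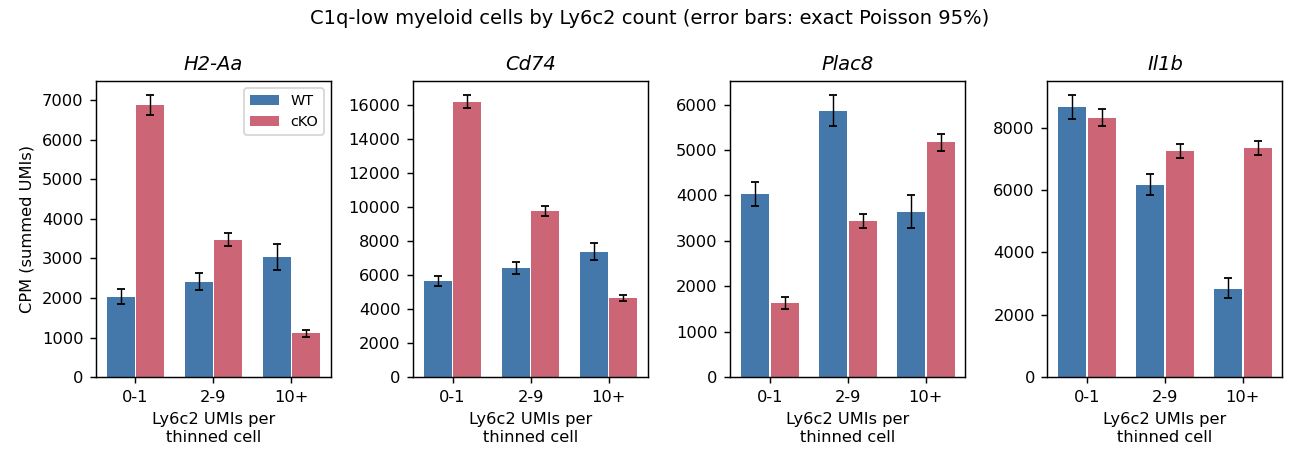
Levels of H2-Aa, Cd74, Plac8 and Il1b (CPM of summed UMIs, linear axis from 0) in C1q-low myeloid cells of the WT and cKO libraries, grouped by Ly6c2 UMIs after thinning to 5200 UMIs per cell; error bars are exact Poisson 95% limits. H2-Aa in cKO goes from 6862 to 1107 CPM from the lowest to the highest Ly6c2 range, and in WT from 2034 to 3026 CPM. The highest WT range has 7 cells, and the WT cell with plasmacytoid genes was not left out.

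Other monocyte genes went different ways between the libraries. Ccr2, the receptor that draws classical monocytes from marrow and blood, stood at 314 and 352 CPM, a ratio of 1.12 whose interval spanned 1 (0.943 to 1.34). Plac8 was lower in cKO, at 4582 and 3586 CPM (ratio 0.783, 0.747 to 0.821), and so was Tgfbi, at 1848 and 1273 CPM. Ifitm6, an interferon-induced transmembrane protein gene of monocytes, stood at 138 and 361 CPM. The gene most unlike them was Chil3, a chitinase-like protein of marrow monocytes and alternatively activated macrophages, with 1193 CPM (1104 to 1288) over WT members against 230.3 CPM (207 to 255) over cKO members, a log2 ratio of -2.35. It was found in 24 of 38 WT members, where the median was 599 CPM, and in 61 of 143 cKO members, where the median was 0. Its highest cell in WT, at 4459 CPM, was close to the highest in cKO, at 3863 CPM, and in all 3 Ly6c2 ranges WT lay above cKO: 853, 1628 and 1057 CPM against 51.1, 359 and 255 CPM. The nonclassical genes Ace and Treml4 stood at 116 and 88.1 CPM and at 52.6 and 48.2 CPM, with both ratio intervals spanning 1; at least 1 UMI of either was in 17 of 37 thinned WT members and 40 of 128 in cKO.

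**Figure D2:**
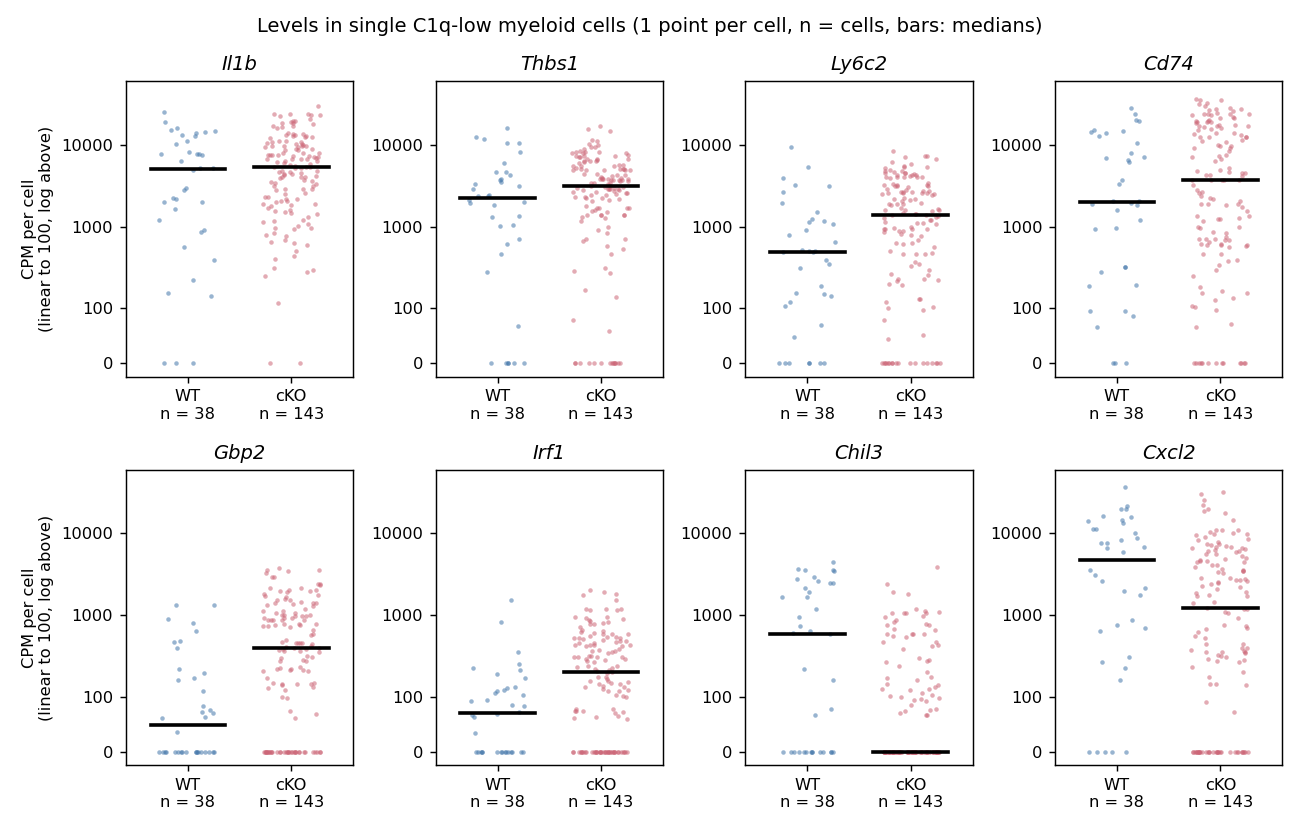
Level of 8 genes in each C1q-low myeloid cell (CPM, axis linear up to 100 and logarithmic above; 38 WT and 143 cKO cells, 1 point per cell, bars are medians). Il1b and Thbs1 cells of both libraries cover the same range, while the median of Gbp2 is 49.1 CPM in WT and 393 CPM in cKO and that of Chil3 is 599 CPM and 0.

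Antigen presentation was described in 2 lists. The class II list (chains, peptide editors, invariant chain and lysosomal proteases) had 10 of 13 genes at a mean of 20 CPM or more. All 10 had a log2 ratio above 0, the median was 0.26, and none was past 2-fold; over all 4810 genes at that level the median was -0.01, the middle 50% ran from -0.30 to 0.26, and 1.93% were at least 2-fold higher, 1.93% at least 2-fold lower and 3.87% past 2-fold either way in cKO. Cd74 stood at 6216 CPM (6009 to 6428) and 9475 CPM (9323 to 9630), H2-Aa at 2351 and 3478 CPM, H2-Eb1, a class II beta chain, at 1966 and 2695 CPM, and H2-Ab1, the partner of H2-Aa, at 2929 and 3154 CPM. The direction did not hold for all of them. H2-Ab1 was lower in cKO under 4 of 14 alternatives and H2-Eb1 under 2, among them the member rule without any Cd3 UMI (log2 ratios of -0.25 and -0.04). Ciita, the master activator of class II genes, was too low for the list median, with 5 UMIs in WT and 39 in cKO (9.07 and 25.1 CPM).

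Class II was spread over the members very unevenly. In thinned cells, Cd74 was under 10 UMIs in 17 of 37 WT and 54 of 128 cKO members and at 50 or more in 10 (27.0%, 13.8 to 44.1) and 46 (35.9%, 27.7 to 44.9). In the members with under 10, H2-Aa stood at 64.7 CPM in WT and 28.7 in cKO, and in those with 50 or more at 7376 and 8228 CPM. The median H2-Aa per cell was 389 CPM in WT and 126 CPM in cKO, the reverse order of the summed levels, and cells ran from 0 to 15580 CPM and to 24478 CPM. The cKO members rich in Cd74 held less Ly6c2 (1153 CPM) than those poor in it (2412 CPM), and little Hp (73.3 against 647 CPM). In WT, Ly6c2 went the other way, at 1185 CPM in members rich in Cd74 against 813 CPM in those poor in it. Hp in WT stood at 34.4 against 429 CPM. In C1q-high cells H2-Aa stood at 6451 CPM in WT and 5848 in cKO and Cd74 at 16078 and 15569 CPM, and in T cells H2-Aa stood at 259 and 391 CPM, a level at which free RNA from other cells was not told apart from expression.

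The class I list (heavy chains, peptide transporters, immunoproteasome and loading proteins) had all 19 genes measured, a median log2 ratio of 0.48 and 14 of 19 above 0. One was past 2-fold, H2-Q6, a nonclassical heavy chain at 58.0 and 134 CPM that is near-identical to H2-Q7 (297 and 292 CPM) and so uncertain on short tags. H2-D1 and H2-K1, the classical heavy chains, stood at 2280 and 3954 CPM and at 1799 and 2798 CPM, and every one of the 14 alternatives kept both above 0 (log2 0.73 to 0.86 and 0.56 to 0.78). B2m, their shared light chain, stood at 3312 and 3240.3 CPM with a ratio interval that spanned 1. The H2-D1 median per cell was 2170.0 CPM in WT and 4025 CPM in cKO, and the ranges overlapped (1080 to 4681 and 1164 to 8098 CPM). Heavy chains were higher in cKO T cells as well, with H2-D1 at 3806 and 5469 CPM. Of costimulatory and checkpoint genes, 11 of 15 were measured, with a median of 0.17, none at least 2-fold higher and 1 at least 2-fold lower. Cd86, a ligand of CD28 and CTLA-4, stood at 194 and 312 CPM, Cd274, which encodes PD-L1, at 122 and 229.6 CPM, and Cd40, the receptor for T cell help, at 38.1 and 79.8 CPM, while Havcr2, which encodes TIM-3, was the gene past 2-fold lower, at 218 and 91.3 CPM.

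The interferon-gamma list had the highest median of the 15 lists by function, with the marker lists of cell types not counted. Of its 17 genes, 16 were measured, 10 were at least 2-fold higher in cKO and 0 lower, beside 1.93% of all genes in either direction, and the list median was 1.24. The list was chosen with earlier results of these data known, so its direction is not independent evidence. WT members held 209 CPM of Gbp2 (172 to 250.4) and cKO members 730.0 CPM (688 to 774), with medians per cell of 49.1 and 393 CPM and a T cell level of 44.2 and 110.0 CPM. It was found in 45.9% of thinned WT members (29.5 to 63.1) and 71.9% of cKO members (63.2 to 79.5). Irf1 stood at 109 CPM (83.1 to 140.1) and 304 CPM (277 to 332), with a median per cell of 71.1 and 201 CPM. Igtp stood at 47.2 and 162 CPM and Socs1 at 32.6 and 131 CPM, the latter with 18 WT UMIs. The groups of cells overlapped for each of these genes, since every one had cells at 0 in both libraries.

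The 2 largest ratios of the list rested on little WT signal. Cxcl9, a chemokine that draws CXCR3-bearing T cells, stood at 163 CPM in 8 WT members and 868 CPM in 51 cKO members, and 1 WT cell held 45 of the 90 WT UMIs; leaving out the top cell of each library changed the log2 ratio from 2.37 to 3.09. Iigp1, an immunity-related GTPase, had 4 UMIs in 3 WT members and 161 in 28 cKO members, a ratio of 14.3 (5.47 to 53.0), and T cells held 70.9 and 122 CPM of it. Both receptor chains went without a higher level, with Ifngr1 at 268 and 260 CPM and Ifngr2 at 189 and 138 CPM. Tgtp1 and Tgtp2 are near-identical copies, and their split is uncertain.

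The same genes were higher in cKO in the other cells of the 2 libraries. The list median was 0.95 in C1q-high cells and 0.92 in T cells, beside medians over all genes of 0.05 and 0.01, and Gbp2, Irf1, Igtp, Socs1 and Cxcl9 were above 0 in all 3 classes. The difference is thus not shown to be particular to C1q-low myeloid cells, and a difference between the classes was not tested. Within the members it was present over the Ly6c2 ranges: Gbp2 stood at 97.1, 436 and 45.6 CPM in WT and at 565, 664 and 927 CPM in cKO, and Irf1 at 97.1, 140.3 and 82.0 CPM and at 282, 338 and 288 CPM. The list median lay between 1.16 and 1.33 under all 15 alternatives.

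**Figure D3:**
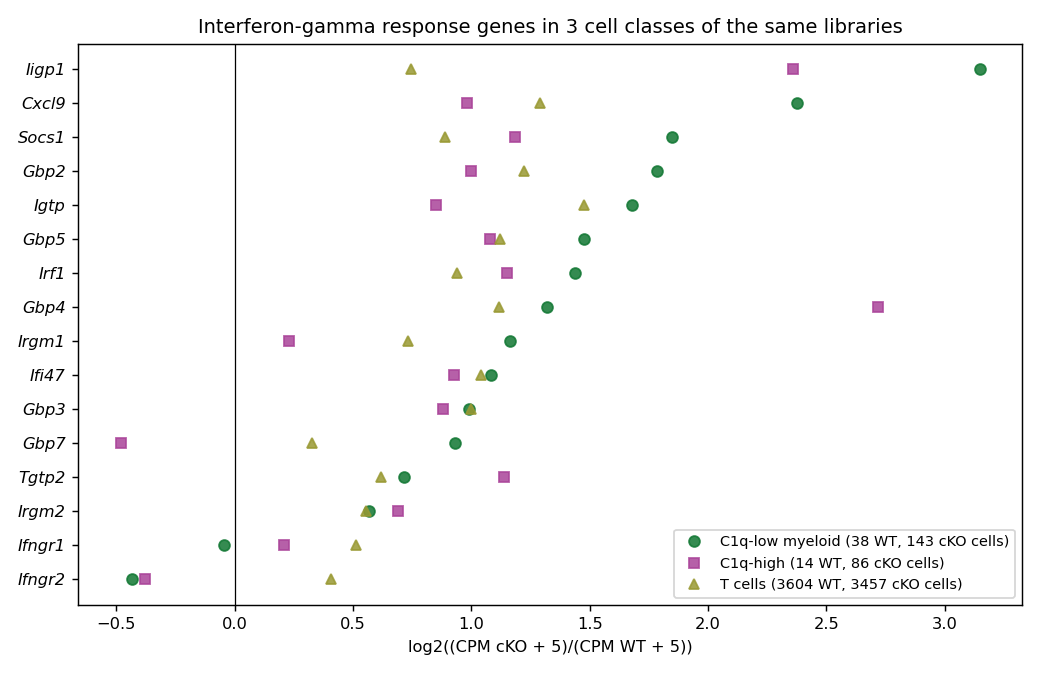
Log2 ratio of cKO over WT (5 CPM added to both) for the 16 measured interferon-gamma response genes in C1q-low myeloid cells, C1q-high cells and T cells of the same 2 libraries. For C1q-low cells 14 of the 16 points lie above 0, with Iigp1 at 3.15, and the list medians are 1.24, 0.95 and 0.92.

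Genes of the type I interferon response, which overlap with those of interferon-gamma, stood lower on the scale of differences. Of 18 measured, 2 were at least 2-fold higher and 0 lower, beside 1.93% of all genes in either direction, and the median was 0.55. Isg15, a ubiquitin-like modifier, stood at 624 CPM (560 to 693) and 1436 CPM (1377 to 1496), and Oas1a, an antiviral RNA sensor, at 32.6 and 83.0 CPM. Ifitm3, which blocks virus entry, stood at 3154 and 6117 CPM and was found in every member of both libraries. The classical type I targets Ifit1, Ifit2 and Ifit3 showed no such direction, at 219 and 198 CPM, 141 and 87.5 CPM, and 180 and 207 CPM, with 46.3%, 44.9% and 55.6% of the WT UMIs of each in 1 cell. Cxcl10, a chemokine induced by both interferons, stood at 1106 and 1595 CPM, and 56.6% of the WT UMIs came from 1 cell: leaving out the top cells changed the log2 ratio from 0.53 to 1.57.

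Inflammatory mediators had a median log2 ratio of -0.04, a value that turned positive under 6 of 15 alternatives, but some members lay far from it. Of 20 genes, 18 were measured, 0 were at least 2-fold higher and 3 at least 2-fold lower in cKO, beside 1.93% of all genes in either direction. Those 3 were the neutrophil-attracting chemokines Cxcl1, Cxcl2 and Cxcl3. For Cxcl2 and Cxcl3 the position past 2-fold depended on the settings: the Cxcl2 log2 ratio of -1.05 lay between -0.82 and -0.98 under 4 of 14 alternatives, and that of Cxcl3 went from -1.69 to -0.40 with no Cd3 UMI allowed. WT members held 7877 CPM of Cxcl2 (7645 to 8115) and cKO members 3797 CPM (3701 to 3895), with medians per cell of 4736 and 1229 CPM and highest cells at 37262 and 31793 CPM. Cxcl3 stood at 221 and 64.96 CPM in 12 and 17 members, and Cxcl1 at 61.7 and 24.4 CPM in only 2 and 4 members. Il1rn, the natural antagonist of interleukin 1, was just short of 2-fold higher, at 452 CPM (397 to 511) and 904 CPM (858 to 953), and so differed more than Il1b itself. Tnf (72.6 and 68.2 CPM) and Ptgs2, the inducible prostaglandin synthase (337 and 341 CPM), had ratio intervals that spanned 1. Osm, oncostatin M, stood at 956 and 675 CPM, Nlrp3, the inflammasome sensor, at 254 and 181 CPM, and Il12b at 0 in both.

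**Figure D4:**
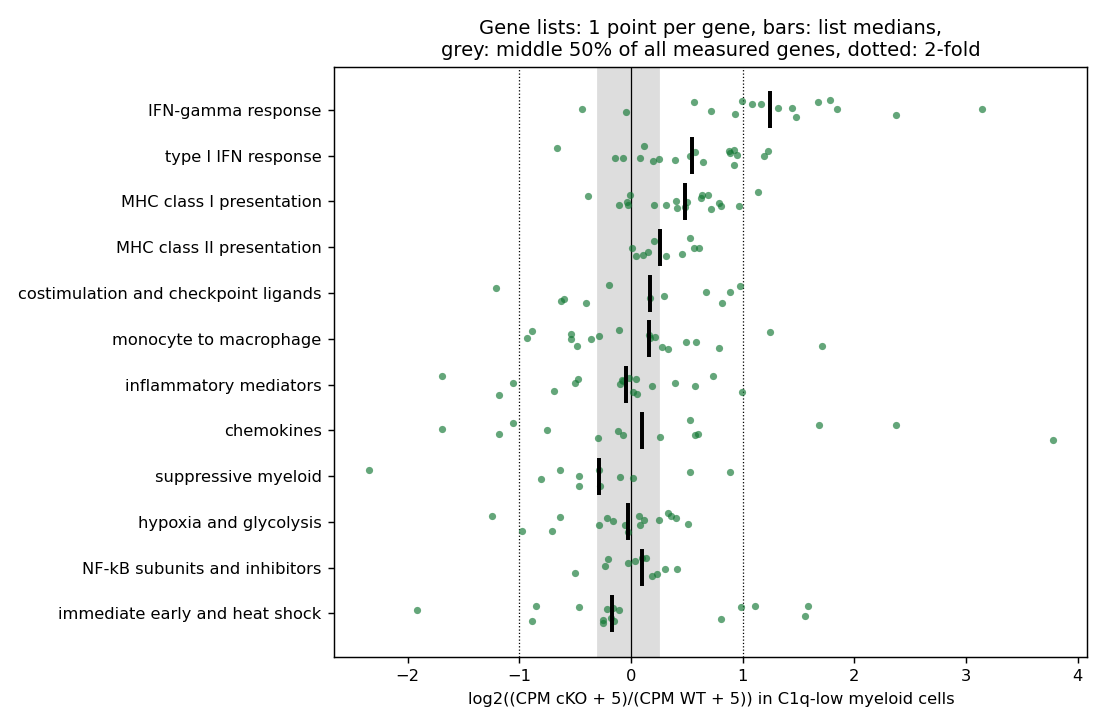
Log2 ratio of cKO over WT in C1q-low myeloid cells for the measured genes of 12 lists by function (1 point per gene, black bars are list medians, grey band the middle 50% of all 4810 genes from -0.30 to 0.26, dotted lines 2-fold). The median of the interferon-gamma list is 1.24 and that of the inflammatory mediators is -0.04.

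Among genes of matrix, repair and suppression, the levels of Spp1 and Arg1 leaned on few cells. Spp1, osteopontin, stood at 1680 and 958 CPM in 17 and 47 members, with 28.4% of the WT UMIs in 1 cell. Arg1, arginase 1, stood at 473 and 342 CPM, and its log2 ratio of -0.46 became 0.05 without the highest cell of each library. At least 5 UMIs of both summed were in 9 of 37 thinned WT members (24.3%) and 34 of 128 in cKO (26.6%). These cells held more Cxcl2 than cells without either gene, at 11379 against 4786 CPM in WT and 6304 against 2591 CPM in cKO, and less Ace, at 26.1 against 199 CPM and 13.8 against 109 CPM. Vegfa, a vessel growth factor, stood at 608 and 390 CPM, Fn1, fibronectin, at 715 and 372 CPM, and Apoe, a lipid carrier of macrophages, at 1522 and 820 CPM. Of 38 WT and 143 cKO members, Vegfa was found in 34 and 90, Fn1 in 27 and 83 and Apoe in 32 and 84. Of 17 hypoxia and glycolysis genes, all measured, 0 were at least 2-fold higher and 1 lower (Ero1l, an oxidase of the secretory pathway, 192 and 78.5 CPM), with a median of -0.02.

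Outside the lists, the highest ratios in cKO at a mean of 50 CPM or more included Timp1, a metalloprotease inhibitor, at 7.26 and 115 CPM (4 and 179 UMIs), Cnn3, an actin-binding calponin, at 16.3 and 90.7 CPM, and Areg, the growth factor amphiregulin, at 32.6 and 137.0 CPM beside 1080.4 and 1102 CPM in T cells. Ccl7, a monocyte chemokine, had the highest of all (19.95 and 338 CPM), but 73.4% of its cKO UMIs and 90.9% of its WT UMIs were in 1 cell each. The lowest included Egr1, an immediate early transcription factor, at 408 CPM (356 to 465) and 104 CPM (88.8 to 122), Id1, an inhibitor of differentiation, at 81.6 and 22.5 CPM, and Spint1, a protease inhibitor, at 139.7 and 44.4 CPM. Other immediate early genes differed less, with Jun at 644 and 347 CPM and Fos at 1177 and 1092 CPM. Hspa1a and Hspa1b, near-identical heat shock genes, had ratios of 1.56 and 1.59 on the log2 scale, with 60.2% of WT Hspa1a UMIs in 1 cell. AY036118, a nuclear RNA of uncertain annotation, stood at 345 and 19.9 CPM here, and at 356 and 26.5 CPM in T cells.

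The deleted gene, Jmjd1c, was not a check in these cells. Its level was 120 CPM (92.6 to 152) over WT and 69.5 CPM (57.0 to 83.9) over cKO members, which are not Tregs, and 3' tags need not come from the removed exons. T cell products were counted in the members. Gzmb, a cytotoxic granule protease, had 3 UMIs in 3 WT members and 112 in 53 of 143 cKO members (5.44 and 72.0 CPM), beside 549 and 3919 CPM in T cells, and at least 1 UMI of Trac, Trbc1 or Trbc2 was in 13 of 38 and 46 of 143 members. A single cKO member held 28 of the 112 Gzmb UMIs. Whether such UMIs came from free RNA, doublets or the members themselves was not tested. How much of any shared gene came from T cells was not tested either. Of the 16 measured interferon-gamma genes, 10 were lower in T cells than in the members of the same library, Gbp2, Irf1 and Cxcl9 among them, in WT and in cKO alike. The other 6 were not lower in T cells in either library: Gbp4, Gbp7, Iigp1, Igtp, Socs1 and Ifngr1. Igtp stood at 174 and 493 CPM and Socs1 at 90.2 and 171 CPM in T cells, both above the members.

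Against C1q-high cells, the contrast is set by the rule and is given as a description only: at a mean of 50 CPM, 74 of 2792 genes (2.65%) were at least 2-fold higher and 67 (2.4%) at least 2-fold lower in the members in both libraries. The higher ones included the monocyte genes Ace, Hp, Ifitm6, Vcan, Plac8 and Chil3, the coagulation factor gene F10 (341 and 302 CPM against 42.2 and 66.5), the aspartic protease gene Napsa (417 and 446 against 74.96 and 116 CPM), Gsr, glutathione reductase, and Slpi, a secreted protease inhibitor. The lower ones included genes of resident and mature macrophages. Mrc1, the mannose receptor, stood at 7.26 and 14.2 CPM against 141 and 174 CPM, Ms4a7 at 39.9 and 72.7 CPM against 745 and 500.02 CPM, and Cd63, a lysosomal tetraspanin, at 47.2 and 36.7 CPM against 438 and 295 CPM. Pf4, platelet factor 4, which macrophages also express, was at 0 in WT members and 27.7 CPM in cKO members against 227 and 637 CPM. Il1b and Thbs1 were present in both classes, at 4343 and 4350 CPM and at 1806 and 2605 CPM in C1q-high cells.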

How the data were processed

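UMI counts per gene and barcode were deposited for 1 WT and 1 cKO library. The authors used Cell Ranger 5.0.1 for these counts, per the file headers, with build mm10, per the submitters' processing notes. Details not given in the sources used here include the annotation, any counting of introns and any filter on barcodes or doublets before deposit.

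The members, gene lists and thresholds were chosen with earlier results of these data known. Barcodes were kept with at least 500 genes and under 10% mitochondrial UMIs (3842 of 3905 in WT, 4026 of 4105 in cKO). The libraries shared 2 barcodes, none a member. Scrublet (scanpy 1.11.5, expected doublet rate 5%) marked 1 of 7868 barcodes and so gave no usable call; removing the highest 5% of its scores is an alternative, which took away 1 WT member, the one with plasmacytoid genes, and no cKO member. UMIs were summed over members per library and scaled to CPM, with 5 CPM added before log2. Lists were summarised over their genes at a mean level of 20 CPM or higher. For shares and ranges of cells, each cell was thinned to 5200 UMIs, and 1 shallower member in WT and 15 in cKO were not used. Since each group has 1 library, nothing was tested and no gene was called changed. The calculation was tested on simulated data.

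Genes were named by rule: key genes of the question, the 15 highest and 15 lowest ratios at a mean of 50 CPM or more, up to 4 genes per list with the largest absolute ratio, and the 15 genes most above and most below C1q-high cells in both libraries. Receptor segments, ribosomal, mitochondrial, sex-linked and unnamed genes stayed outside the rankings. Not every gene under the rule is printed, and the other list and marker genes printed were added after their values were seen. Of 32285 gene identifiers, 32235 were matched to GENCODE M21, the source of gene coordinates; promoters are from RefSeq. UMIs remove PCR copies, and intervals do not cover differences between animals, sorts or captures. Python 3.11.15, scipy 1.17.1 and numpy 2.4.6 were used.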

Additional observations from a re-analysis of the deposited data

How the results depend on the processing

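No paired analysis was possible because each group has 1 library. For the same reason no library could be left out. Alternatives changed 1 choice each. Removing the highest Scrublet scores took the same single member as leaving out the plasmacytoid one, so these give the same values in the members. The interferon-gamma median ran from 1.16 to 1.33 and the WT share from 0.703% to 1.20%, and 49 of 57 named genes kept their sign. The cKO share of 3.55% became 2.96% with no C1q UMI allowed and 2.71% with no Cd3 UMI. The Il1b log2 ratio (0.19) became 0.086 with no C1q UMI, 0.13 with C1q up to 10, 0.30 with Lyz2 from 5, 0.42 with no Cd3 UMI, 0.29 with thresholds per 10000 UMIs, and 0.12 without the highest Scrublet scores, as a mean over cells and without the plasmacytoid member. The Thbs1 ratio (0.05) became 0.24 with no Cd3 UMI, 0.25 per 10000 UMIs, 0.13 as a mean over cells and 0.15 without the top cells. The Ly6c2 ratio (0.59) became 0.71 per 10000 UMIs, 0.82 without members rich in S100a8 and S100a9 or dendritic genes, 0.83 without the highest Scrublet scores or the plasmacytoid member, 0.81 as a mean over cells and 0.79 without the top cells. The class II median (0.26) became 0.49, 0.11 and 0.12 with no C1q UMI, no Cd3 UMI and per 10000 UMIs, 0.31 without the marker-rich members, 0.37 without the highest Scrublet scores or the plasmacytoid member, 0.19 as a mean over cells and 0.32 at a mean of 100 CPM. The class I median (0.48) became 0.53 with no C1q UMI, 0.38 with Lyz2 from 5, 0.44 without the highest Scrublet scores or the plasmacytoid member and 0.43 as a mean over cells. Genes at least 2-fold higher in cKO numbered 93, or 230 at a mean of 5 CPM and 21 at 100 CPM; those lower numbered 93, or 242, 15, 163 with no Cd3 UMI and 141 with a pseudocount of 1. Reversed signs were Arg1 at 0.053 without the top cells; H2-Ab1 at -0.25 with no Cd3 UMI, -0.43 per 10000 UMIs, -0.0196 without marker-rich members and -0.054 as a mean over cells; and H2-Eb1 at -0.035 and -0.045 under the first 2 of these. S100a8 (-0.49) ran from -1.39 to 2.36, Tnf (-0.08) from -0.19 to 0.14, Ptgs2 (0.01) from -0.65 to 0.24 and B2m (-0.03) from -0.05 to 0.06, and Ly6d (-4.51) became 0 without the plasmacytoid member. The inflammatory median became 0.033 with Lyz2 from 5, 0.048 with no Cd3 UMI, 0.10 per 10000 UMIs, 0.018 without marker-rich members, 0.083 as a mean over cells and 0.015 at 100 CPM. The cause of these shifts was not tested. Leaving out the plasmacytoid member or the top cells, and the level of 100 CPM, were chosen after seeing the data. The 551332 WT UMIs from 38 cells limit low genes, and single cells weigh most there.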

Other observations

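Of 15 Fc, pattern and adhesion receptor genes measured in the members, 2 were at least 2-fold higher in cKO and 0 lower, beside 1.93% of all genes in either direction, with a median log2 ratio of 0.23. Fcgr4, an activating receptor for IgG, stood at 112 and 274 CPM and was found in 20 of 38 and 96 of 143 members, and Cd36, a scavenger receptor, stood at 16.3 and 48.2 CPM. Cd14, a coreceptor for bacterial lipopolysaccharide, stood at 2924 and 3555 CPM, and Tlr2 at 408 and 241 CPM. All 11 NF-kB subunit and inhibitor genes were measured and none was past 2-fold, with a median of 0.10. Of 11 S100, annexin and galectin genes, S100a9 alone was past 2-fold, and its UMIs came from 1 WT and 4 cKO members.

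The members were not cycling by these genes: of 10 cell cycle genes, 1 (Pcna, 68.9 and 76.5 CPM) had a mean of 20 CPM, and Mki67, Top2a and Ccnb1 stood at or under 7.72 CPM, beside 117 and 83.2 CPM of Mki67 in T cells. Socs3, a feedback inhibitor of interleukin 6 and interleukin 10 signalling, stood at 589 and 556 CPM in the members and at 55.2 and 205.0 CPM in T cells. Itga4, the integrin alpha 4 chain, stood at 129 and 81.0 CPM in the members and at 200.1 and 41.8 CPM in T cells.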
